A study of Mus musculus with 6 samples.

Results

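The VEGF and angiopoietin genes described here are 10 genes chosen by symbol: the ligand genes Vegfa, Vegfb, Vegfc, Vegfd and Pgf, the receptor genes Flt1, Kdr and Flt4, the angiopoietin gene Angpt2 and its receptor gene Tek. Each symbol matched 1 of the 55401 gene IDs of the count tables, and all 10 were among the 15334 genes that passed the filter on low counts. The values come from polyadenylated RNA of primary mouse cholangiocytes, the epithelium of the bile ducts, taken from wild-type (WT) mice and from mice with polycystic liver disease (PLD). Both groups were sampled 3 months after tamoxifen, with 3 libraries each, and the cells had been pulled from digested biliary trees with beads against the surface protein EpCAM. The labels name the groups only as WT and PLD: they give neither the altered gene, nor a Cre driver, strain or age, and they do not say that the libraries of a group came from separate animals. The p-values therefore measure the spread between these libraries, which may be technical.

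Vascular endothelial growth factors are secreted proteins that make blood and lymph vessels grow and leak. VEGF-A, VEGF-B and placental growth factor bind the receptor encoded by Flt1, VEGF-A also binds the main signalling receptor of blood vessels, encoded by Kdr, and VEGF-C and VEGF-D act mostly on the receptor encoded by Flt4, which marks lymphatic vessels and liver sinusoids. Angiopoietins act on the receptor encoded by Tek and set how stable a vessel is, with angiopoietin-2 usually working against angiopoietin-1. Bile duct epithelium is a known source of VEGF-A, which supports the vessel network around the ducts, whereas the receptors are mainly endothelial.

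The label of primary cholangiocytes was checked against marker genes. Epcam lay between 254 and 417 CPM (counts scaled to a common library size, with TMM normalisation between libraries) in WT and between 919 and 1363 in PLD, and the endothelial gene Pecam1 between 826 and 1079 CPM in WT and between 61.4 and 95 in PLD. The summed level of 15 cholangiocyte markers was 9811 to 14307 CPM in WT and 33661 to 47085 in PLD. For 23 endothelial markers the sum was 8877 to 11005 CPM in WT and 657 to 1197 in PLD, and for 18 markers of fibroblasts, stellate and smooth muscle cells it was 9269 to 14287 and 1900 to 4874. None of these markers was at 0. By these sums the WT preparations held much endothelial and mesenchymal RNA. Totals ran from 15768561 to 16710548 counted reads per library. In such bulk samples, fewer cells of a type and less RNA per cell cannot be told apart.

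The regulatory sequences just before 4 of the starts are given first, for the ligand gene with the highest level in PLD (Vegfa) and for the 3 receptor genes that later show the largest falls (Flt1, Kdr and Tek). Each is the 250 bases before the RefSeq start in the mouse build GRCm38.p6, written 5′ to 3′ on the strand of the gene, with matches to the searched motifs in capitals (the Tek window holds none).
Vegfa, chr17:46032378-46032627, minus strand: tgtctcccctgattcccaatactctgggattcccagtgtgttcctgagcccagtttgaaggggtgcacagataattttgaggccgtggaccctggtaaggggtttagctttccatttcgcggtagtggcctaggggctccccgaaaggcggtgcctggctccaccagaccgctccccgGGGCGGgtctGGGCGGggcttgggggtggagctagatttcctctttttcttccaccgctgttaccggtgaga
Flt1, chr5:147726012-147726261, minus strand: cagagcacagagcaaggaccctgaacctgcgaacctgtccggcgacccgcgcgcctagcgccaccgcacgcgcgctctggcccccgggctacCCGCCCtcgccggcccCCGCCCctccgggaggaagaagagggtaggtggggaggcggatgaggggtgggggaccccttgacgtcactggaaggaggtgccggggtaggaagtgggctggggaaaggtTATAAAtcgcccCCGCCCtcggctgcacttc
Kdr, chr5:75978456-75978705, minus strand: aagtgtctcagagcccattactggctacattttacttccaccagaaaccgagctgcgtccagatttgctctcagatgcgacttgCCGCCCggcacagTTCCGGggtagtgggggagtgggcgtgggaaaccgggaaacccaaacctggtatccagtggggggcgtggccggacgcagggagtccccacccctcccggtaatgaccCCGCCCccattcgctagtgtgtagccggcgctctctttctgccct
Tek, chr4:94739039-94739288, plus strand: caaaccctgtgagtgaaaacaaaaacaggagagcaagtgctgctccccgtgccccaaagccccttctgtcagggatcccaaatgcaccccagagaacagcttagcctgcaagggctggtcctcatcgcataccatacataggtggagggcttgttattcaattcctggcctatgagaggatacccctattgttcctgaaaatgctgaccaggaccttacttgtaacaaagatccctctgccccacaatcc
These windows end 8, 0, 3 and 0 bases from the start of the gene model used for counting.

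The searched motifs were the GC box GGGCGG, the hypoxia response element core ACGTG, the ETS-type site CCGGAA and the TATA box TATAAA, on both strands, and in the 9 windows searched no match to one motif overlapped a match to another. RefSeq gave such a window for 9 of the 10 genes, not for Angpt2. Of the windows not printed, those of Vegfb and Vegfc end 0 and 74 bases before the start of the gene model. That of Vegfd ends 144 bases past this start and lies partly inside the gene model. Those of Pgf and Flt4 end 477 and 416 bases past it and lie wholly inside the gene model. The GC box was found in 7 of the 9 windows and in 32.7% of 32851 windows of that length, and the windows without it were those of Vegfd and Tek. The windows of the 9 genes held 42.4% to 76.4% G and C, against a median of 52.4% over all windows. A TATA box stood in 2 windows, those of Flt1 and Vegfd (12.4% of all windows), an ETS-type site in that of Kdr alone (12.0% of all windows), and ACGTG in 0 of 9 (16.6% of all windows).

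Of the 10 genes 2 were higher in PLD, Vegfa and Vegfb, and 8 were lower. This count rests on the quasi-likelihood test of edgeR, with p-values adjusted by Benjamini-Hochberg over all tested genes and a threshold of 0.05. By it 27.0% of all tested genes were higher and 28.4% lower, 55.4% in all. The values of PLD and WT libraries did not overlap for any of the 10, nor for 66.2% of all tested genes (33.0% higher and 33.2% lower in PLD). The median log2 fold change of the 10 was -2.28, against 0.01 over all genes tested. With so many genes called, the number of calls by itself does not set these genes apart.

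**Figure D1:**
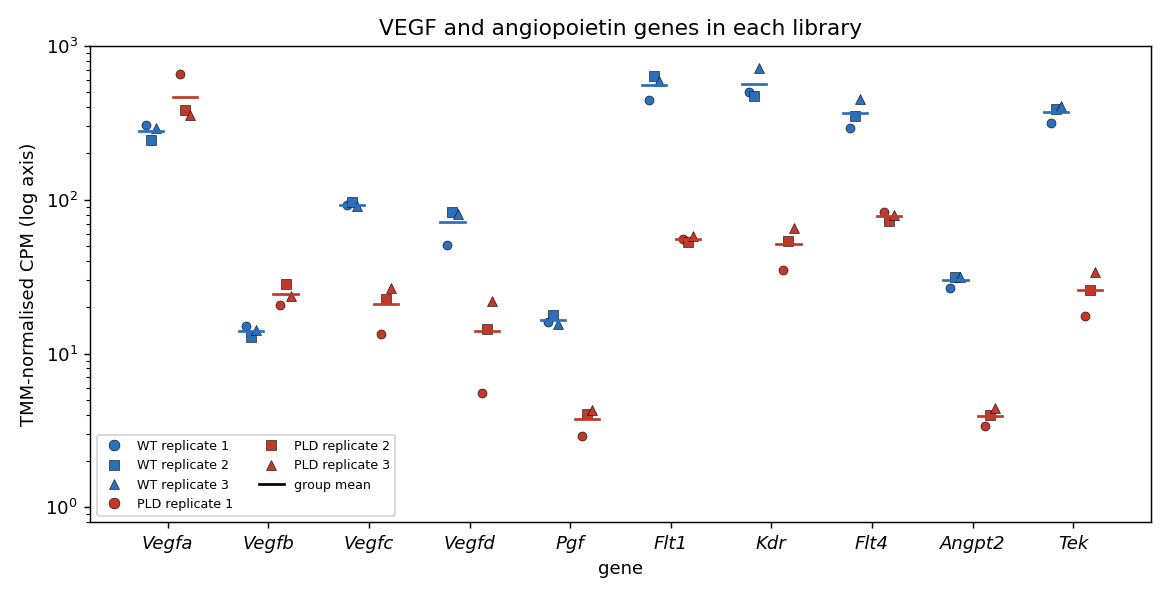
Level of each gene in each library in TMM-normalised CPM (log axis), with WT in blue and PLD in red, 1 symbol per replicate and a line at the mean of 3 libraries. Vegfa and Vegfb lie higher in PLD and the other 8 genes lower, with no overlap between the groups.

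Among the ligands that act on blood vessels, Vegfa, the main driver of vessel growth (ENSMUSG00000023951.18, mm10 chromosome 17, 46016993 to 46032369), had 308, 245 and 291 CPM in the WT libraries and 655, 381 and 354 CPM in the PLD libraries. PLD replicate 1 stood far above the other PLD libraries, which lay closer to WT. The means were 281 ± 32.9 CPM in WT and 463 ± 166 in PLD (SD, n = 3 each), a 1.65-fold rise or a log2 fold change of 0.72 ± 0.24 (± standard error, SE) with an adjusted p of 0.0355 by edgeR. Without PLD replicate 1 the log2 fold change was 0.39 (edgeR adjusted p = 0.0308). The call was lost when any WT library was left out, with edgeR adjusted p = 0.0509, 0.106 and 0.0851 without WT replicate 1, 2 and 3. Beside this rise, 14 of 15 cholangiocyte markers were higher in PLD and 1 was lower (-2.24), with a list median of 1.6. Among all tested genes 27.0% were higher.

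Vegfb, whose product binds the Flt1 receptor and is best known from muscle and heart (ENSMUSG00000024962.13, chromosome 19, 6982473 to 6987651), had 15.2, 12.9 and 14.2 CPM in WT and 20.7, 28.4 and 23.7 CPM in PLD. Every PLD library lay above every WT library, by a mean of 24.3 ± 3.88 against 14.1 ± 1.16 CPM. The log2 fold change of 0.79 ± 0.15 (SE) passed the test (edgeR adjusted p = 0.0034). In PLD replicate 1, where Vegfa was highest, Vegfb was the lowest of the PLD libraries.

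Pgf, encoding placental growth factor (ENSMUSG00000004791.7, chromosome 12, 85166635 to 85177790), moved the other way although its product shares a receptor with VEGF-B. It had 15.9, 17.9 and 15.6 CPM in WT and 2.89, 4.03 and 4.32 CPM in PLD, from 253 to 303 and from 42 to 72 reads. All PLD values were below all WT values, and Pgf fell 4.38-fold, with a log2 fold change of -2.13 ± 0.19 (SE, edgeR adjusted p = 1.42e-04).

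The ligands of the lymphatic receptor fell as well. Vegfc (ENSMUSG00000031520.6, chromosome 8, 54077606 to 54187096) had 92.3, 96.2 and 90.7 CPM in WT and 13.4, 22.5 and 26.7 CPM in PLD. The WT libraries were close to each other (93.1 ± 2.82 CPM) and PLD replicate 1 was the lowest, and the log2 fold change was -2.15 ± 0.23 (SE, edgeR adjusted p = 2.83e-04). Vegfd (ENSMUSG00000031380.10, chromosome X, 164373378 to 164402650) had 50.4, 83.3 and 80.7 CPM in WT and 5.51, 14.3 and 22 CPM in PLD. Both groups were spread widely, with replicate 1 the lowest in each. Its log2 fold change was -2.35 ± 0.44 (SE, edgeR adjusted p = 0.0033), and it ran from -2.83 to -1.97 over 13 alternative analyses. Beside the falls of Pgf, Vegfc and Vegfd, 16 of 18 fibroblast, stellate and smooth muscle markers were lower in PLD, with a median of -1.84. Among all tested genes 28.4% were lower. In PLD the summed level of these markers was lowest in replicate 1 (1900 CPM), as were all 3 ligand genes. In WT the sum was also lowest in replicate 1 (9269 CPM), as was Vegfd, but Pgf and Vegfc were lowest in WT replicate 3. The part of these cells in the falls was not tested.

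All 3 VEGF receptor genes fell, Flt1 and Kdr with larger fold changes than any ligand gene. Flt1, a high-affinity receptor that also has a secreted form acting as a decoy (ENSMUSG00000029648.13, chromosome 5, 147561604 to 147726011), had 446, 642 and 589.6 CPM in WT and 55.6, 53.2 and 57.9 CPM in PLD. The counts join all isoforms of a gene, so membrane-bound and secreted Flt1 were not told apart. The PLD libraries were nearly equal, while WT replicate 1 lay below the other WT libraries. Flt1 fell 10.1-fold in the mean, with a log2 fold change of -3.33 ± 0.16 (SE, edgeR adjusted p = 2.81e-05).

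Kdr, the receptor through which VEGF-A drives endothelial growth (ENSMUSG00000062960.10, chromosome 5, 75932827 to 75978458), had 504, 470.1 and 714 CPM in WT and 35.1, 53.6 and 65.9 CPM in PLD. WT replicate 3 was the highest and PLD replicate 1 the lowest, with a wide gap between the groups. Kdr fell 10.9-fold, a log2 fold change of -3.45 ± 0.27 (SE, edgeR adjusted p = 9.03e-05). Flt4, the receptor for VEGF-C and VEGF-D (ENSMUSG00000020357.3, chromosome 11, 49609263 to 49652739), had 292, 350.4 and 454 CPM in WT and 83.1, 72.7 and 79.9 CPM in PLD. It fell 4.65-fold, a log2 fold change of -2.22 ± 0.17 (SE, edgeR adjusted p = 8.57e-05), and unlike Kdr it was highest in replicate 1 among the PLD libraries.

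In the angiopoietin branch, the receptor gene Tek (ENSMUSG00000006386.15, chromosome 4, 94739289 to 94874976) had 316, 391.8 and 408 CPM in WT and 17.4, 26.0 and 33.7 CPM in PLD. No PLD library came near the WT values, and the 14.4-fold fall, a log2 fold change of -3.85 ± 0.25 (SE, edgeR adjusted p = 5.28e-05), was the largest of the 10 genes. Angpt2, a ligand made by endothelial cells themselves (ENSMUSG00000031465.6, chromosome 8, 18690263 to 18741562), had 26.5, 31.7 and 31.6 CPM in WT and 3.37, 3.96 and 4.44 CPM in PLD. Its log2 fold change was -2.92 ± 0.16 (SE, edgeR adjusted p = 3.33e-05). Angpt2 lies in the span of Mcph1, which is on the other strand, with 0 shared exon bases. Mcph1 itself did not pass the test, at -0.42 on the log2 scale (edgeR adjusted p = 0.147).

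Across the 8 genes that fell, the order of the PLD libraries was similar. PLD replicate 1 was the lowest for 6 of them, all but Flt1 and Flt4, and PLD replicate 3 the highest for 7, all but Flt4. The summed endothelial markers had the same order, with 657, 978 and 1197 CPM in PLD replicates 1, 2 and 3. This order was not particular to endothelial markers. The fibroblast, stellate and smooth muscle sum had it too, as did macrophage markers (1398, 1863 and 1904 CPM) and hepatocyte markers (2498, 6455 and 6991 CPM). Cholangiocyte, mesothelial and neutrophil sums ran in the reverse order. The cholangiocyte and mesothelial lists share Krt19, the mesothelial gene with the highest CPM, and the neutrophil sum was low (24.3, 8.42 and 7.63 CPM). All 23 endothelial markers were lower in PLD, beside 28.4% of all tested genes, with a median log2 fold change of -3.26. Flt1, Kdr and Tek fell by more than that median, and Angpt2, Vegfd, Flt4, Vegfc and Pgf by less.

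**Figure D2:**
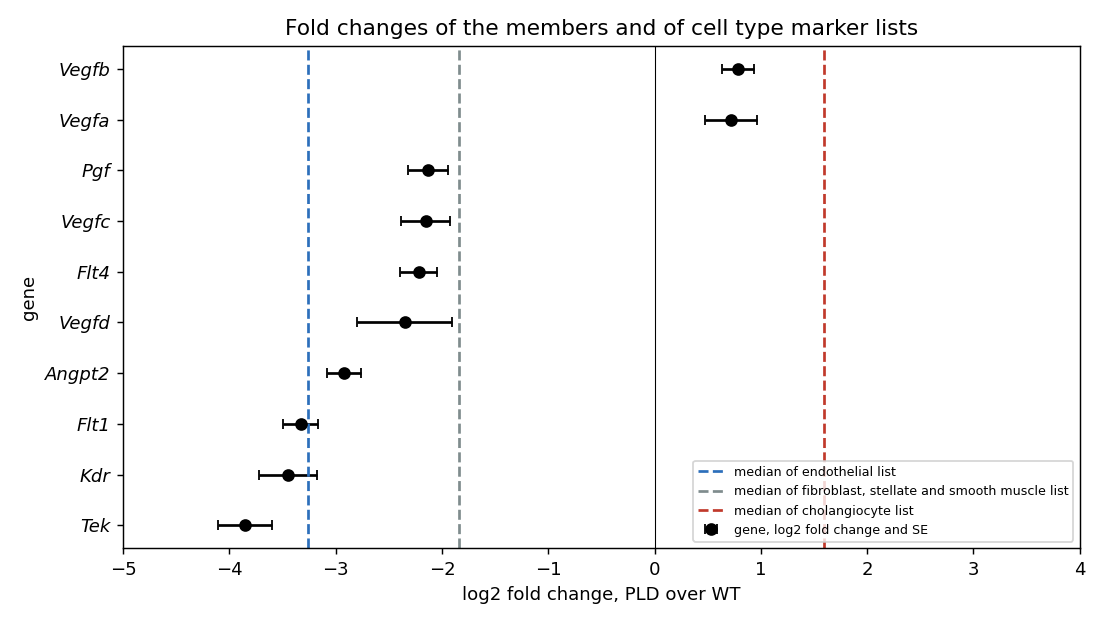
Log2 fold change of PLD over WT for each gene (point, with its SE as the bar) beside the medians of the endothelial, fibroblast and cholangiocyte marker lists (dashed lines). Flt1, Kdr and Tek sit at or below the endothelial median of -3.26, while Vegfa and Vegfb sit between 0 and the cholangiocyte median of 1.6.

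To set the receptors against the endothelial RNA of their own library, reads were counted per 100 reads of the 23 endothelial markers. Kdr had 5.68, 4.27 and 6.58 such reads in WT and 5.35, 5.48 and 5.50 in PLD. The groups overlapped, and the exact two-sided permutation test over the libraries gave p = 1.0 (1.0 after Benjamini-Hochberg adjustment over the 14 ratios tested here). Flt1 had 5.02, 5.83 and 5.43 in WT and 8.46, 5.44 and 4.84 in PLD, again overlapping (exact permutation p = 0.80, adjusted p = 0.862). Its PLD mean rested on PLD replicate 1: with that library the log2 ratio of PLD to WT was 0.16 and without it -0.079.

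Flt4 differed from Kdr and Flt1 on this scale, with 3.28, 3.18 and 4.18 reads per 100 endothelial reads in WT and 12.6, 7.43 and 6.68 in PLD. Every PLD library lay above every WT library, by 2.43-fold in the mean log ratio, and the log2 ratio stayed between 1.00 and 1.46 in all alternatives run, Pecam1 as the denominator included. Angpt2 was also higher per endothelial read, with 0.298, 0.288 and 0.291 in WT against 0.514, 0.405 and 0.371 in PLD. Tek was lower per endothelial read, with 3.56, 3.56 and 3.76 in WT and 2.65, 2.66 and 2.82 in PLD. Such shifts were not particular to these genes, as the markers of the list itself fell unevenly in CPM. Cldn5, Sox17, Eng and Esam (log2 fold changes -1.98, -2.33, -2.62 and -2.82) fell by less than Angpt2 (-2.92). Vwf (-4.07) and Ptprb (-3.91) fell by more than Tek (-3.85). For each of Flt4, Angpt2 and Tek the groups did not overlap and the exact permutation p was 0.10 (0.127 adjusted), the smallest p that 3 against 3 libraries allow, so none could pass 0.05.

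**Figure D3:**
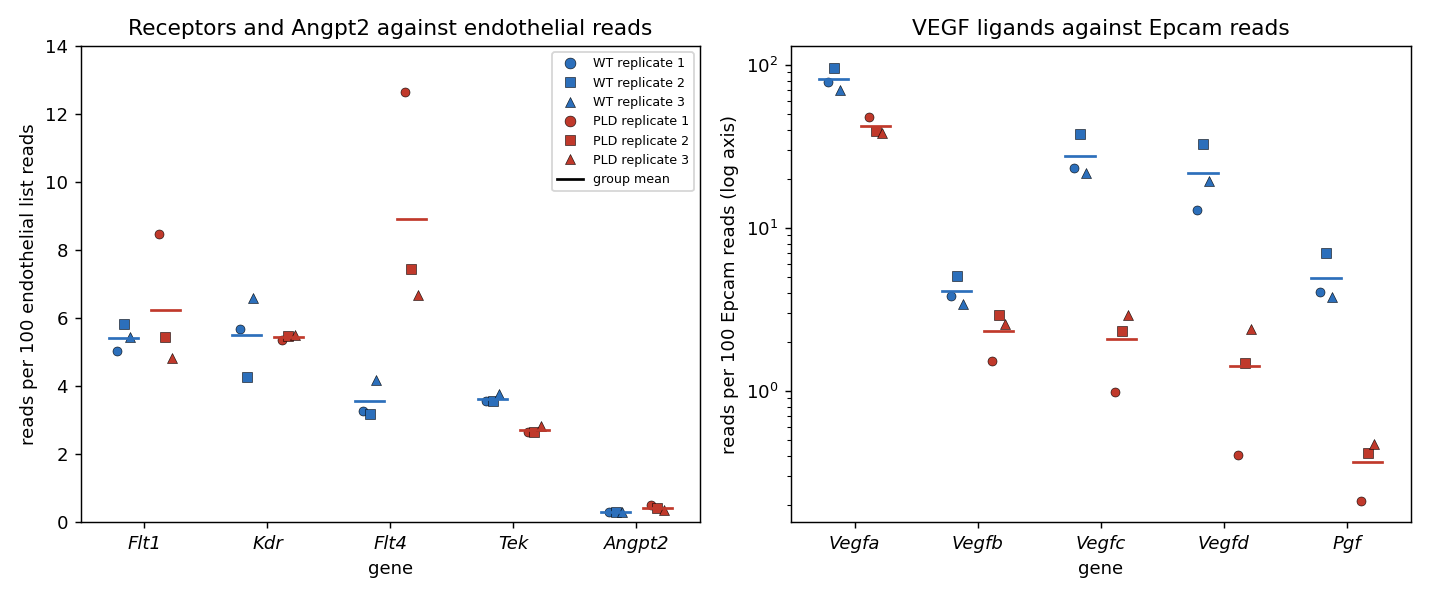
Left, reads of the receptor genes and Angpt2 per 100 reads of the endothelial list, and right, reads of the ligand genes per 100 Epcam reads (log axis), 1 symbol per library and a line at the group mean. Kdr overlaps between groups and Flt4 is higher in all PLD libraries. Each ligand is lower per Epcam read in PLD, where Epcam itself is higher.

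Set against Epcam, the target of the bead selection, the ligands had another order. Vegfa had 78.2, 96.2 and 69.8 reads per 100 Epcam reads in WT and 48.0, 39.2 and 38.5 in PLD, 1.94-fold fewer, although its CPM was higher in PLD. On this scale PLD replicate 1 was no longer far from the other PLD libraries. Vegfb likewise went from 4.11 ± 0.85 to 2.34 ± 0.73 reads per 100 Epcam reads (SD, n = 3 libraries each). Vegfc, Vegfd and Pgf were 14.3-fold, 17.9-fold and 13.7-fold lower per Epcam read. For all 5 ligands the groups did not overlap, with exact permutation p = 0.10 (adjusted p = 0.127), the smallest that can be reached. Epcam itself was higher in every PLD library, so any gene that rose less than Epcam comes out lower on this scale. The median log2 fold change in CPM over all genes tested was 0.01. Lower values and the lack of overlap per Epcam read are therefore not read as a result about the ligands. The direction for Vegfa and Vegfb thus depends on the scale: both were higher in CPM and lower per Epcam read.

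Levels of different genes were compared per length, as RPKM (CPM divided by the exon length in kilobases). In WT, Tek was highest with 78.9 RPKM, followed by Vegfa with 65.6, Kdr with 62.3, Flt4 with 44.4, Flt1 with 41.4 and Vegfc with 38.0, and each of these overlapped with the next in the order. Vegfd (29.7 RPKM) lay below Vegfc without overlap. Vegfb (8.77) and Angpt2 (8.11) overlapped with each other, and Pgf was lowest with 5.68 RPKM. In PLD, Vegfa stood alone at the top with 108 RPKM and Vegfb was next with 15.1, each clear of the gene after it. Flt4 (9.54), Vegfc (8.52), Vegfd (5.79), Kdr (5.71), Tek (5.46) and Flt1 (4.12) followed, each overlapping with its neighbour. Pgf (1.29 RPKM) and Angpt2 (1.06) were lowest and overlapped.

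**Figure D4:**
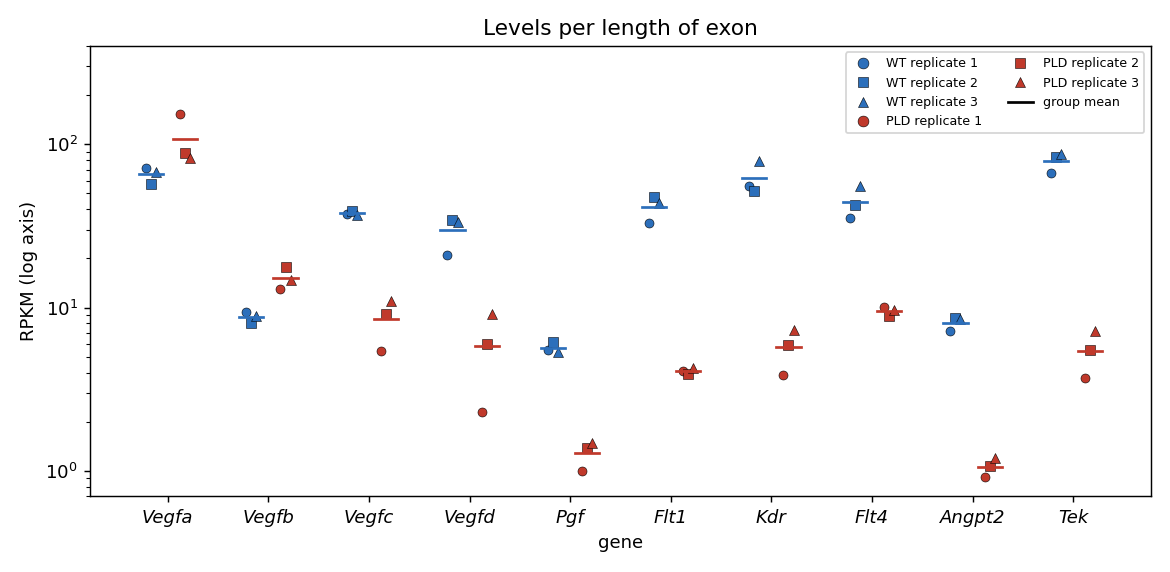
Level in RPKM (log axis) of each gene in each library, with the group mean as a line. In WT, 6 genes lie between 38.0 and 78.9 RPKM on average, and in PLD Vegfa stands alone at 108 RPKM, with Vegfb next at 15.1.

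The groups differed in the make-up of the ligand RNA. Summed over the 5 ligand genes, the level was 146, 145 and 153 RPKM in WT and 174, 123.1 and 119 in PLD, so the groups overlapped. Vegfa made up 44.4% ± 5.06 of that sum in WT and 76.4% ± 9.78 in PLD (SD, n = 3 libraries each). Vegfc went from 25.7% ± 1.40 to 6.59% ± 3.12 and Vegfd from 20.1% ± 5.00 to 4.61% ± 3.19. The 3 VEGF receptor genes together went from 148 ± 27.3 to 19.4 ± 1.70 RPKM. Within that smaller sum, Flt4 made up 29.8% ± 1.25 in WT and 49.5% ± 5.46 in PLD.

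Ratios between a ligand and a receptor gene show the same data within each library. Vegfa had 1.29, 1.10 and 0.857 times the per-length level of Kdr in WT and 39.3, 15 and 11.3 times in PLD (exact permutation p = 0.10, adjusted p = 0.127). Flt1 stood to Kdr as 0.685 ± 0.198 in WT and 0.770 ± 0.252 in PLD, which overlapped (exact permutation p = 0.60, adjusted p = 0.70, n = 3 each). Angpt2 stood to its counterpart Angpt1 as 0.863, 1.03 and 0.869 in WT and as 0.628, 0.443 and 0.454 in PLD. Tek stood to Tie1, the gene of its partner receptor, as 0.905 ± 0.0779 in WT and 0.687 ± 0.0288 in PLD. Both of these ratios were lower in every PLD library (exact permutation p = 0.10 each, adjusted p = 0.127).

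The other genes of the angiopoietin branch fell or did not pass, with 7 of 9 lower and 0 higher (median log2 fold change -2.02). Beside this, 28.4% of all tested genes were lower and 27.0% higher. Angpt1, the ligand that steadies vessels and is made mostly by perivascular cells, went from 43.3, 43.5 and 51.2 CPM to 7.58, 12.6 and 13.8 CPM (log2 fold change -2.02 ± 0.22 SE). Tie1 fell by 3.46 and Ptprb, a phosphatase that holds Tek signalling down, by 3.91 on the log2 scale. Svep1, a matrix protein, fell by 3.11. All 4 passed edgeR's test, with adjusted p between 5.19e-05 and 4.33e-04.

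Of 15 co-receptor and partner genes of the VEGF system 11 were lower and 3 higher (median -1.96). The shares over all tested genes were 28.4% lower and 27.0% higher. The co-receptor genes Nrp1 and Nrp2, named after their values were seen, fell by 2.24 and 1.92 on the log2 scale. Ccbe1, needed to process VEGF-C into its active form, had 30.6, 40.6 and 39.9 CPM in WT and 2.0, 1.71 and 1.86 CPM in PLD. Its log2 fold change of -4.31 ± 0.17 (SE, edgeR adjusted p = 2.53e-05) was larger in size than that of any of the 10 genes. Sema3d fell by 4.16 and Plxnd1, the receptor of semaphorin 3E, by 3.06 on the log2 scale.

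The 3 genes that were higher are all class 3 semaphorins, secreted guidance factors that act through neuropilins and plexins. Sema3e, the ligand of Plxnd1, had 8.14, 7.61 and 5.44 CPM in WT and 80.9, 106 and 97.2 CPM in PLD. The groups were far apart, and its log2 fold change of 3.74 ± 0.19 (SE, edgeR adjusted p = 2.98e-05) stood beside the fall of its receptor gene. Sema3c rose by 2.08 ± 0.13 (SE) on the log2 scale, with 112 CPM on average in WT and 476 in PLD. Sema3b rose by 0.88 ± 0.17 (SE), with 35.5 and 65.6 CPM. In this list Sema3a, Sema3d, Sema3f and Sema3g were lower.

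Of 28 signalling genes that act below the receptors 10 were higher and 9 lower, with a median log2 fold change of 0.19. Among all tested genes 27.0% were higher and 28.4% lower, and the counts of the list are not read as a result. Nos3, the endothelial nitric oxide synthase gene, went from 124 ± 24.2 to 12.2 ± 0.443 CPM (log2 fold change -3.34 ± 0.16 SE, edgeR adjusted p = 2.81e-05). Plcg1, the phospholipase bound by activated Kdr, fell by 1.81 and the kinase gene Fyn by 2.54, and the exchange factor gene Vav2 rose by 1.06 on the log2 scale. Genes known to respond to VEGF or angiopoietin in endothelium were lower for 8 of 15 and higher for 1, with a median of -0.76. Klf2 fell by 2.04, Dll4 by 2.11, Adamts1 by 1.45 and Hlx by 2.61 on the log2 scale. The gene that was higher was Dusp5 (0.73, edgeR adjusted p = 0.0428). The Dusp5 call was lost without PLD replicate 1 or 2 or WT replicate 2 or 3 (edgeR adjusted p = 0.102, 0.0699, 0.0997 and 0.0958). Endothelial markers, with their median of -3.26, fell in the same libraries, and their part in these falls was not tested.

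**Figure D5:**
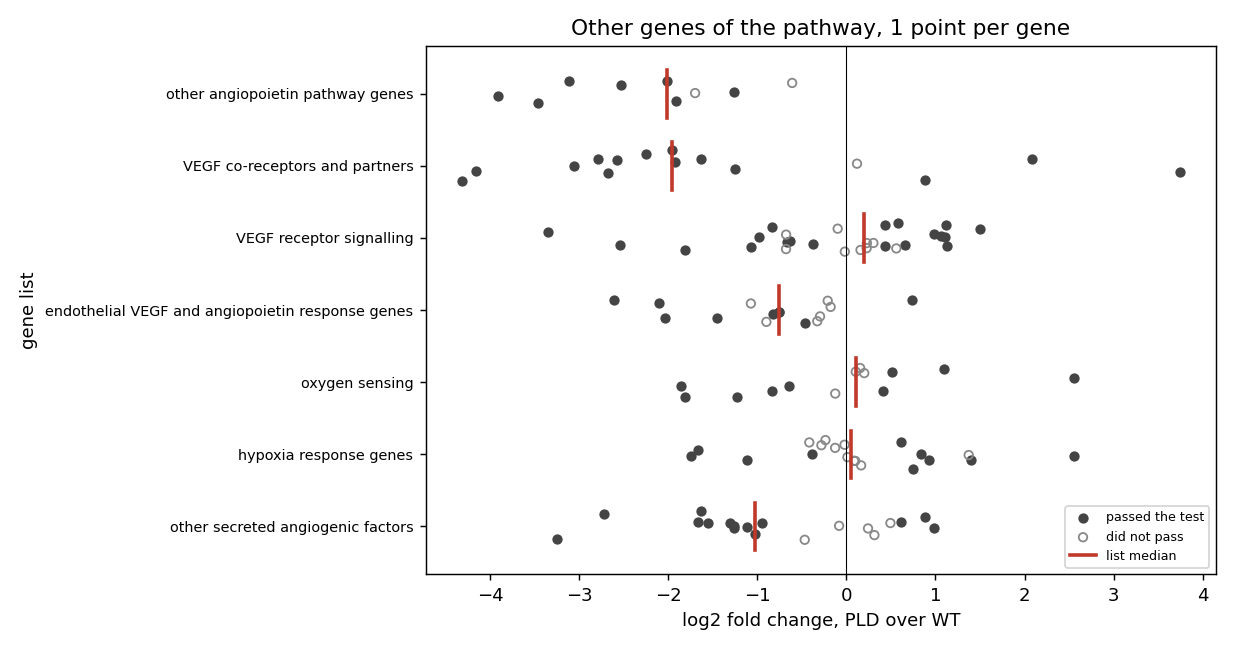
Log2 fold change of PLD over WT for every tested gene of the 7 lists around the VEGF and angiopoietin system, filled where edgeR's adjusted p was below 0.05, with the list median in red. The angiopoietin and co-receptor lists lie mostly below 0 with medians of -2.02 and -1.96, and the signalling, oxygen sensing and hypoxia lists spread to both sides.

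Vegfa is a classic target of the hypoxia-inducible factors, so the oxygen sensing genes were read beside it. Of 13 such genes 4 were higher and 5 lower (median 0.11), beside 27.0% higher and 28.4% lower among all tested genes, so the counts do not set the list apart. Epas1, encoding HIF-2 alpha, went from 854, 826 and 853 CPM to 251, 223 and 249 CPM (log2 fold change -1.81 ± 0.11 SE, edgeR adjusted p = 4.30e-05). Hif1a, the gene of HIF-1 alpha, had 192, 215 and 193 CPM in WT and 292, 179 and 174 CPM in PLD and did not pass (log2 fold change 0.11, edgeR adjusted p = 0.679). Like Vegfa, Hif1a was highest in PLD replicate 1, and without that library its log2 fold change was -0.17.

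Egln3, a prolyl hydroxylase gene that hypoxia induces and whose product marks HIF for breakdown, rose from 48.1, 45.4 and 58.9 CPM to 310.5, 305 and 281 CPM (log2 fold change 2.55 ± 0.13 SE, edgeR adjusted p = 3.23e-05). Its relative Egln1 fell by 0.83 and Hif1an, the gene of an inhibitor of HIF, rose by 1.10 on the log2 scale, while Vhl (0.41) and Elob (0.52) were the other genes that were higher. The Vhl call was lost without PLD replicate 2 or 3 or WT replicate 1 or 3 (edgeR adjusted p = 0.0631, 0.0584, 0.0697 and 0.0646). Of 20 hypoxia response genes 6 were higher, 4 lower and 10 did not pass (median 0.05, against 0.01 over all genes tested). These counts are near the background of 27.0% higher and 28.4% lower among all tested genes, so they are no result about the list. P4ha1 and Bnip3 fell by 1.67 and 1.75 on the log2 scale, Bnip3 from 48 to 78 reads per WT library to 16 to 18 per PLD library. Ndrg1 rose by 1.40 and, like Vegfa, had its highest value in PLD replicate 1 (1226 CPM, against 701 and 704 CPM). Slc2a1, Pfkfb3, Pgk1 and Ddit4 rose by 0.61, 0.84, 0.75 and 0.93 on the log2 scale and were also highest in that library. Other genes of the same list went the other way. Adm (log2 fold change -1.12), P4ha1, Car9, Ldha, Bnip3l, Ankrd37 and Ak4 had their lowest PLD value in PLD replicate 1. The Slc2a1 call was lost without PLD replicate 1 or WT replicate 2 or 3 (edgeR adjusted p = 0.0693, 0.113 and 0.0972).

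By likeness over the 6 libraries (Pearson correlation of log2 CPM among the 10364 genes whose mean log2 CPM reached 3), the genes closest to Vegfa were Las1l (r = 0.998), Xpc (0.998) and Aars (0.997). Tpbgl, Robo4 and Itpkb were closest to Kdr, with r between 0.999 and 1.000, and Serpinf1, Plvap and Rasl12 were closest to Pgf, in the same range. With 6 libraries in 2 groups, these values mostly reflect the difference between the groups, and they are given as a description.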

How the data were processed

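The authors deposited 1 table of raw read counts per gene and library, made with featureCounts 1.6.0 on GENCODE vM25 (mm10) and without options for strand or multi-mapping reads, per the file headers. STAR 2.7.4a, SAMtools 1.12 and DESeq2 1.26.0 are named without settings, per the submitters' processing notes. Symbols came from GENCODE vM21 for 55141 of 55401 IDs. The test was edgeR 4.0.16 in R 4.3.3, run on the 15334 genes kept by filterByExpr, with TMM factors of 0.922 to 1.04, PLD against WT without covariates. The SE was obtained from the log2 fold change and the F statistic, as their quotient with F under a square root. CPM and RPKM use the TMM-scaled totals and the exon length in the tables. Library totals were 15768561 to 16710548 counts, so 3 counts correspond to 0.180 to 0.190 CPM. Replicates of a group differed by 9.72 to 63.9 in chi-square per degree of freedom, beyond sampling noise. The fitting code was first tested on simulated data with known changes.

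The 10 genes and all lists were chosen with earlier results of these data known. Besides the 10, the text names up to 4 genes of each pathway list with the smallest p, up to 3 genes of a marker list with the highest mean CPM, and the genes most like Vegfa, Kdr and Pgf. Nrp1, Nrp2, Hif1a, Ndrg1, Dusp5, Vhl, Elob, Sema3a, Sema3b, Sema3c, Sema3f, Sema3g, Mcph1, Edn1, Spry2, Bmp2, Pdpn, Pecam1 and Epcam were named after their values were seen. So were Slc2a1, Pfkfb3, Pgk1, Ddit4, Car9, Ldha, Bnip3l, Ankrd37, Ak4, Cldn5, Sox17 and Esam. Alternatives were DESeq2 1.42.0, limma-voom (limma 3.58.1), RLE and upper-quartile factors, no filter or 1 CPM in 3 libraries, a replicate block, other denominators and leaving out each library.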

Additional observations from a re-analysis of the deposited data

How the results depend on the processing

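Of the 10 genes 8 were lower in each of the alternatives run, and 1 to 2 were higher when single libraries were left out, 1 without WT replicate 1, 2 or 3 (Vegfa then did not pass). Of 130 values of the 10 genes, 127 kept direction and call, and 3 of Vegfa lost the call. Over all genes, 3173 to 4183 were higher and 3626 to 4562 lower when a library was left out. The direction per endothelial read changed with single libraries for Flt1 (log2 ratio -0.079 to 0.32) and Kdr (-0.17 to 0.14). Hif1a ran from -0.17 to 0.25 and the platelet gene Pf4 from -0.23 to 0.025 without single libraries. With the replicate number as a block, 2 of the 10 genes were higher and 8 lower, and Vegfa had a log2 fold change of 0.67. Same-numbered libraries correlated at 0.16, 0.04 and 0.06 in their deviations, and not every library correlated best with its own number. Replicate 1 of either group correlated at -0.12 to -0.09 with replicates 2 and 3 of the other. PLD replicate 2 with WT replicate 3 gave 0.12, and PLD replicate 3 with WT replicate 2 gave 0.10. With 3 libraries per group, these values cannot decide whether the numbers pair the libraries or mark a shared batch. The block gave 3920 genes higher and 4242 lower. Counts of Pgf and Angpt2 in PLD (42 to 74 reads per library) limit their precision most.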

Other observations

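A list of 19 other genes, mostly of secreted factors that promote or restrain vessel growth, had a median log2 fold change of -1.02. In PLD 11 of them were lower and 3 higher, beside 28.4% lower and 27.0% higher among all tested genes. The vessel inhibitor genes Serpinf1 and Thbs2 fell by 2.72 and 1.67, and the growth factor gene Igf2 by 3.25 on the log2 scale. Igf2 had only 6 to 8 reads per PLD library and 52 to 96 per WT library. Hdgf, encoding a heparin-binding growth factor, rose from 158, 185 and 165 CPM to 339, 348 and 316 CPM (log2 fold change 0.98 ± 0.11 SE, edgeR adjusted p = 3.1e-04). Edn1, encoding the vasoconstrictor endothelin-1, rose by 0.89, and Spry2, an inhibitor of receptor signalling that was kept in this list, by 0.62. The Spry2 call was lost without PLD replicate 1 or WT replicate 2 or 3 (edgeR adjusted p = 0.0793, 0.127 and 0.0865).

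Marker lists of single vessel types were mostly lower. Sinusoidal markers were lower for 11 of 11 (median -3.81), venous markers for 8 of 8 (median -3.64), arterial markers for 6 of 7 (median -2.33) and lymphatic markers for 6 of 7 (median -3.56). The exceptions were Efnb2 (0.91) and Pdpn (1.63), which were higher. Flt4, a member of the sinusoidal and lymphatic lists, fell by 2.22, less than the median of either list. Bmp2 of the sinusoidal list (-1.38) and Prox1 of the lymphatic list (-1.62) fell by less than Flt4. Macrophage markers were higher for 3 of 12 and lower for 0, and hepatocyte markers higher for 3 and lower for 4 of 12. Mesothelial markers were higher for 2 and lower for 4 of 7, neutrophil markers lower for 2 of 4 tested and platelet markers lower for 2 of 3 tested. Over all tested genes, 27.0% were higher and 28.4% lower. The counts of the macrophage, hepatocyte, mesothelial, neutrophil and platelet lists are not read as a result.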
